A study of Mus musculus with 8 samples.

Results

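The genes described here are 33 markers and effectors of proliferation and mitosis, chosen by name and by role rather than by their values. Earlier results of these data were known when they were chosen. All 33 had at least 1 probe on the array, with 43 probes in all, and 30 of them entered the test among 23830 genes or transcripts. The arteries came from 8 female mice that lacked ApoE (apolipoprotein E, whose loss raises plasma cholesterol), were 6 weeks old, had a mixed genetic background and ate a western-type diet. In 4 of them miR-126 was present (miR-126+/+/ApoE-/-), and in the other 4 it was deleted (miR-126-/-/ApoE-/-). Each carotid artery was injured with a wire and harvested 14 days later, during neointima growth, and its RNA was hybridised to 1 array per mouse. The labels name no uninjured artery, so every value describes an injured vessel, and how the deletion was made is not given in the sources used here.

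Wire injury strips the endothelium, after which smooth muscle cells of the vessel wall enter the cell cycle and build a new inner layer, the neointima. Cells copy their DNA in S phase with the MCM helicase and the sliding clamp Pcna, enter mitosis when cyclin B activates Cdk1, and separate their chromosomes once the anaphase-promoting complex has been released by the spindle checkpoint. Transcripts of these genes are low in resting cells and are raised in dividing ones, so their level in a whole tissue follows the share of cells that are cycling. In a whole artery, fewer cycling cells and less RNA per cycling cell cannot be told apart. miR-126 is a microRNA of endothelial cells that lies within the gene Egfl7. Its mature 3p strand, from RefSeq on build GRCm38.p6 at chr2:26591402-26591423 on the plus strand, is shown because it is the molecule deleted in the second genotype, with the seed (bases 2 to 8) in capitals.
mmu-miR-126a-3p: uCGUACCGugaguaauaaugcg

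Many of these genes are switched on together by shared promoter elements. E2F proteins bind elements of S-phase genes, the factor NF-Y binds CCAAT boxes, and the DREAM and MuvB complexes with B-Myb and Foxm1 act on TTTGAA elements of G2 and mitotic genes. The promoters of 4 members are shown because they span both classes, Mcm5 and Pcna for replication and Cdk1 and Ccnb2 for mitosis. Each run covers the 210 bases before the RefSeq start site on GRCm38.p6, read 5′ to 3′ along the gene, with every match to a searched motif in capitals. Ccnb2 lies at chr9:70421555-70421764 on the minus strand, Cdk1 at chr10:69352913-69353122 on the minus strand, Mcm5 at chr8:75109299-75109508 on the plus strand and Pcna at chr2:132253181-132253390 on the minus strand.
Ccnb2: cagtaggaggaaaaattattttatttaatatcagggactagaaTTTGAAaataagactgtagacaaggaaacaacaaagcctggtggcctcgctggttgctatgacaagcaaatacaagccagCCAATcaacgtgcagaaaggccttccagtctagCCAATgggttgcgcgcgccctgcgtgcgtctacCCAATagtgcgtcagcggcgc
Cdk1: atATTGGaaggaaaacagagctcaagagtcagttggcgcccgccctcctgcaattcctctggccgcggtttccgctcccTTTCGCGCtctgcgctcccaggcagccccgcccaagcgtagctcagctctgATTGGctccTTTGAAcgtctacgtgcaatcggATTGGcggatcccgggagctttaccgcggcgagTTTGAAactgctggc
Mcm5: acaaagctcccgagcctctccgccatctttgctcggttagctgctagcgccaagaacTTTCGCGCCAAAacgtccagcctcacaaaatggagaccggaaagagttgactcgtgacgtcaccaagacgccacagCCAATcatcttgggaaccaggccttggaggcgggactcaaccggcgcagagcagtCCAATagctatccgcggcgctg
Pcna: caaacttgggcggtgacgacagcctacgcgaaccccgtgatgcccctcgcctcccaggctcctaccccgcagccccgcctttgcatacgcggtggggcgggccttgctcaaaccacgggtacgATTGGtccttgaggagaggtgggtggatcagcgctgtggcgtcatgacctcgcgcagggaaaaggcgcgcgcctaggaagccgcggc

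The letters searched, on both strands, were CCAAT for NF-Y, then TTTGAA for the mitotic element, and for E2F the octamer TTTCCCGC together with its variants spelled TTTCGCGC or else TTTGCCGC or else TTTGGCGC. An octamer can overlap another one, as in the Mcm5 promoter, where the first E2F match shares letters with the second on the other strand.  Promoters of 27 of the 33 genes were in the RefSeq table, as 29 sequences of 300 bases that run from 250 bases before the start to 50 after it. CCAAT was present in 26 of the 29 member promoters (89.7%) and in 37.4% of all 32851 promoters of that length. TTTGAA was present in 16 (55.2%) against 17.9%, and an E2F octamer in 5 (17.2%) against 2.26%. The split follows the roles. Of the 8 promoters of replication genes (7 genes), 4 held an E2F octamer and 1 held TTTGAA. Of the 21 promoters of the other roles (20 genes), 1 held an E2F octamer and 15 held TTTGAA. The Prc1 windows overlap each other and both hold TTTGAA, so Prc1 is counted more than once. Ccnb2 had 3 CCAAT boxes before the start, and Cdk1 had 3 CCAAT boxes, 2 TTTGAA elements and 1 E2F octamer. These matches are letters in a window, and binding was not measured.

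The arrays shared 1 slide. Its row 1 carried miR-126+/+ and its row 2 miR-126-/- samples, and the effects of row and genotype cannot be told apart. Of the 55681 probes, 55.9% to 61.5% passed the scanner's background criterion on an array, and 0 spots were saturated. The number of arrays, 4 per genotype, limits the precision. Smooth muscle markers (10 of 10) and endothelial markers (10 of 10) were well above background on all 8 arrays, and both cell types belong to the labelled tissue. Adipocyte markers had a summed signal of 332.3 to 724.4 in miR-126+/+ and of 732.5 to 1254.9 in miR-126-/- arteries. Of the 15 markers, 8 did not overlap between the genotypes, against 6.29% of all genes. All 15 were higher in miR-126-/-, against 51.7% of all genes, with a median log2 difference of 1.36. An unadjusted limma p under 0.05 was found for 14, against 10.2% of all genes. After adjustment 0 passed the genotype test (limma, lowest adjusted p = 0.169). The mean of the centred list did overlap, at 0.204 on miR-126+/+ 4 and 0.197 on miR-126-/- 1. Skeletal muscle markers were high on arrays miR-126+/+ 2 and miR-126-/- 1. Array miR-126-/- 4 has a dim area, grid rows 55 to 100 and columns 56 to 70, and carried the highest signals of thymocyte and epithelial markers.

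Levels below are log2 of the scanner's processed signal minus the 75th percentile of log2 signal on that array, so that 0 is the 75th percentile, and a summed signal is in multiples of that percentile. Differences are log2 differences, miR-126-/- minus miR-126+/+, with the standard error (SE) of the fit. Signals of different probes depend on the probe and are not compared with each other. The 3 members not tested were low. Aurkb, the kinase of the chromosomal passenger complex, and Ttk, a checkpoint kinase, were well above background on 0 of 8 arrays, and Cenpf, a kinetochore protein, on 1 of 8. The 30 tested members are those that passed the background filter, of which 29 were well above background on all 8 arrays.

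No proliferation gene passed the test between the genotypes, and the same held for the replication, cyclin, kinase and spindle genes taken by role. With limma's moderated test, 0 of the 30 tested members passed 0.05 after Benjamini-Hochberg adjustment across the whole set of genes, and adjusted p ran from 0.746 to 0.999. Over all genes, 23 of 23830 passed (0.0965%), so no call among 30 members is near that background. An unadjusted p under 0.05 was found for 0 of the 30 members and for 10.2% of all genes. The genotypes overlapped in every tested member, whereas they did not overlap in 6.29% of all genes. The fitted difference was above 0 in 24 of 30 members, against 51.7% of all genes, with a median difference of 0.081 against 0.0076. Members vary together across arrays, so the 24 are not independent, and the count was 14 without array miR-126+/+ 4 and 12 without array miR-126-/- 4. With the adipocyte marker mean as a covariate the median difference of the members was 0.41, against 0.015 over all genes, and 0 members passed. That marker mean was -0.66 in miR-126+/+ and 0.66 in miR-126-/- arteries, so it is partly aligned with genotype. In that fit 0 of all genes passed, so it cannot set the members apart from other genes by calls.

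**Figure D1:**
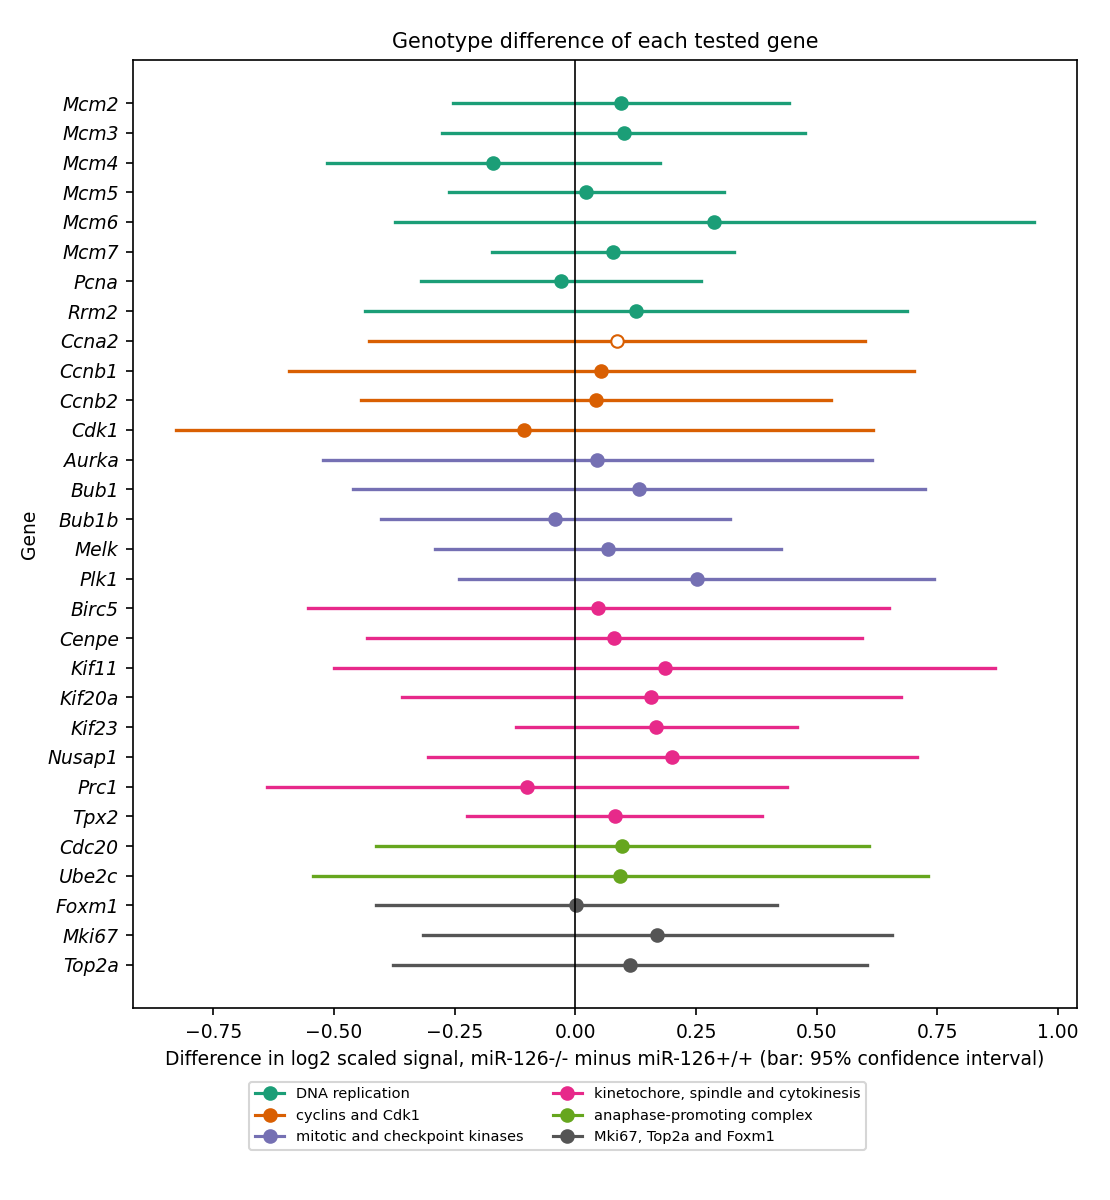
Log2 difference of each tested gene, miR-126-/- minus miR-126+/+ (horizontal axis, points), with its 95% confidence interval (bars), by gene and coloured by role, from 4 arrays per genotype. Ccna2, the open point, is shown without its spot in the dim area. Every interval includes 0, and the fitted differences of the other 29 genes lie between -0.17 and 0.29.

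The precision of these comparisons can be read from the intervals. Leaving Ccna2 aside, the SE of a member ran from 0.109 for Mcm7 to 0.313 for Cdk1, and the 95% confidence intervals reached from -0.17 to 0.33 for Mcm7 and from -0.83 to 0.62 for Cdk1, with the highest upper bound, 0.95, for Mcm6. A p above the threshold does not show that the levels were equal. The 13 tested members that the naming rule does not pick had differences between -0.10 and 0.16 with SEs of 0.109 to 0.261, 11 above 0 and 2 below. Of those 13, 12 were highest on miR-126+/+ 3 within its genotype and 12 on miR-126-/- 4.

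The replication group holds the MCM helicase subunits, which unwind DNA at the fork, the clamp Pcna, which holds the polymerase on DNA, and Rrm2, the ribonucleotide reductase subunit that supplies nucleotides. Of its 8 tested genes, 0 passed the test, 6 had a fitted difference above 0, and the median difference was 0.086. Pcna had levels of 3.89, 3.84, 4.10 and 3.84 in miR-126+/+ arteries and of 3.65, 3.85, 3.88 and 4.16 in miR-126-/- arteries. The highest Pcna level of each genotype was on miR-126+/+ 3 and miR-126-/- 4, and the difference was -0.030 ± 0.126 (SE, n = 4 per genotype; limma adjusted p = 0.961).

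Mcm5 had levels of 0.83, 0.70, 0.67 and 0.80 in miR-126+/+ arteries and of 0.77, 0.69, 0.56 and 1.08 in miR-126-/- arteries. Its SD of 0.078 among miR-126+/+ arrays was the smallest of the members in that genotype, and the difference was 0.023 ± 0.123 (SE; limma adjusted p = 0.968). Mcm4 had the smallest p of the replication group. Its levels were 2.88, 2.61, 3.05 and 2.62 in miR-126+/+ arteries and 2.45, 2.52, 2.57 and 2.94 in miR-126-/- arteries, with a difference of -0.17 ± 0.15 (SE; limma adjusted p = 0.785). Of the miR-126-/- arrays, 3 lay below every miR-126+/+ array for Mcm4, and miR-126-/- 4 was second to miR-126+/+ 3.

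Mcm6 had the largest difference above 0, at 0.29 ± 0.29 (SE; limma adjusted p = 0.809). Its levels were 3.65, 2.64, 3.86 and 3.91 in miR-126+/+ arteries and 3.85, 4.03, 3.46 and 3.86 in miR-126-/- arteries. A single low array, miR-126+/+ 2, set that difference, which was -0.0049 without it. The same array was the lowest of its genotype for Mcm2, Mcm3, Mcm4, Mcm6, Mcm7 and Pcna.

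Cyclin A2 (Ccna2) drives S phase and entry into mitosis, and cyclins B1 and B2 activate Cdk1. Of the 4 genes of this group, 0 passed the test, and 2 had a difference above 0. Ccna2 had levels of 0.72, 0.37, 1.10 and 0.19 in miR-126+/+ arteries and of 0.71, 0.73, 0.61 and -7.11 in miR-126-/- arteries. The spot on miR-126-/- 4 lies in the dim area and was not well above background, and with it the difference was -1.86 ± 1.70 (SE; limma adjusted p = 0.793). Without that spot the difference was 0.087 ± 0.217 (SE, n = 4 and 3; limma adjusted p = 0.937), so the sign turned and the large fitted value rested on 1 spot.

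Cdk1, the kinase that starts mitosis, had levels of -1.17, -1.70, -0.57 and -1.89 in miR-126+/+ arteries and of -1.49, -1.26, -1.94 and -1.07 in miR-126-/- arteries. Its range within miR-126+/+ arteries held the miR-126-/- values apart from miR-126-/- 3, the lowest of all 8, and the difference was -0.11 ± 0.31 (SE; limma adjusted p = 0.944). The difference was 0.15 without miR-126+/+ 3. Ccnb1 had levels of 0.0071, -0.54, 0.43 and -0.74 in miR-126+/+ arteries and of -0.49, -0.36, -0.0041 and 0.23 in miR-126-/- arteries, with a difference of 0.054 ± 0.281 (SE; limma adjusted p = 0.968). Its 2 other probes gave differences of -0.59 ± 0.36 and 0.29 ± 0.27 (SE), so the 3 Ccnb1 probes disagreed in sign, and none passed the test.

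The mitotic and checkpoint kinases phosphorylate spindle and kinetochore proteins (Plk1, Aurka) or hold cells in metaphase until all chromosomes are attached (Bub1, Bub1b). Of the 5 tested genes, 0 passed and 4 had a difference above 0. Plk1 had levels of 1.03, 0.86, 1.29 and 0.35 in miR-126+/+ arteries and of 0.97, 0.99, 1.10 and 1.49 in miR-126-/- arteries. The lowest of the 8 was miR-126+/+ 4 and the highest miR-126-/- 4, and the difference was 0.25 ± 0.21 (SE; limma adjusted p = 0.777). Bub1 had levels of -2.27, -2.62, -1.72 and -2.79 in miR-126+/+ arteries and of -2.40, -2.39, -2.34 and -1.74 in miR-126-/- arteries. Arrays miR-126-/- 1 to 3 were close together while miR-126-/- 4 stood apart, and the Bub1 difference was 0.13 ± 0.26 (SE; limma adjusted p = 0.917).

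The spindle and cytokinesis group holds kinesin motors (Kif11, Kif20a, Kif23, Cenpe), microtubule binders (Tpx2, Nusap1, Prc1) and Birc5, a subunit of the chromosomal passenger complex also known as survivin. Of its 8 tested genes, 0 passed and 7 had a difference above 0, with a median of 0.119. Kif23, the motor of the cleavage furrow, had the smallest p of all members. Its levels were -1.57, -1.76, -1.50 and -1.99 in miR-126+/+ arteries and -1.64, -1.54, -1.57 and -1.39 in miR-126-/- arteries, and the difference was 0.17 ± 0.13 (SE; limma adjusted p = 0.746). Nusap1 had levels of -0.66, -0.97, -0.25 and -0.97 in miR-126+/+ arteries and of -0.84, -0.55, -0.62 and -0.035 in miR-126-/- arteries, with a difference of 0.20 ± 0.22 (SE; limma adjusted p = 0.83). In both genes the ranges overlapped, and miR-126-/- 4 was the highest of the 8 arrays.

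Kif11, which pushes the spindle poles apart, had levels of -2.43, -3.34, -2.54 and -3.00 in miR-126+/+ arteries and of -2.89, -2.92, -2.88 and -1.88 in miR-126-/- arteries. Array miR-126-/- 4 was again highest, and the other 3 miR-126-/- arrays were close together. The Kif11 difference was 0.18 ± 0.30 (SE; limma adjusted p = 0.897), and it was -0.071 without miR-126-/- 4.

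Cdc20 activates the anaphase-promoting complex, and Ube2c is the ubiquitin-conjugating enzyme that works with it. Cdc20 had levels of 1.63, 1.05, 1.92 and 1.01 in miR-126+/+ arteries and of 1.32, 1.44, 1.46 and 1.78 in miR-126-/- arteries, with a difference of 0.097 ± 0.222 (SE; limma adjusted p = 0.929). Ube2c had levels of 0.73, 0.42, 1.46 and 0.19 in miR-126+/+ arteries and of 0.65, 0.60, 0.73 and 1.20 in miR-126-/- arteries, with a difference of 0.093 ± 0.276 (SE; limma adjusted p = 0.944). For both genes miR-126+/+ arteries held the highest and the lowest of the 8 values. A second Ube2c probe gave 0.13 ± 0.24 (SE).

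Mki67 encodes the antigen Ki-67, the usual marker of cycling cells in tissue. Its levels were 2.41, 1.99, 2.66 and 1.78 in miR-126+/+ arteries and 2.27, 2.29, 2.25 and 2.72 in miR-126-/- arteries. The highest array was miR-126-/- 4, closely followed by miR-126+/+ 3, and the difference was 0.17 ± 0.21 (SE; limma adjusted p = 0.853). A second Mki67 probe gave 0.13 ± 0.21 (SE). Top2a, the topoisomerase that untangles chromosomes, had levels of -0.11, -0.62, 0.00029 and -0.56 in miR-126+/+ arteries and of -0.27, -0.50, -0.36 and 0.28 in miR-126-/- arteries, with a difference of 0.11 ± 0.21 (SE; limma adjusted p = 0.913). Foxm1, the transcription factor of the mitotic program, had levels of -1.08, -1.26, -0.58 and -1.18 in miR-126+/+ arteries and of -1.19, -1.05, -1.16 and -0.69 in miR-126-/- arteries. Its difference was 0.0018 ± 0.1798 (SE; limma adjusted p = 0.999), the nearest to 0 of the members, and a second Foxm1 probe gave -0.21 ± 0.25 (SE).

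The members varied within a genotype in a common pattern. In 26 of 30 members the highest miR-126+/+ array was miR-126+/+ 3, which was so for 42.7% of all genes, and in 27 of 30 the highest miR-126-/- array was miR-126-/- 4, against 30.2% of all genes. Without any scaling between arrays these counts were 15 and 16 of 30, against 7.87% and 5.53% of all genes. After each gene was centred on its mean over the arrays and the Ccna2 spot in the dim area was left out, the members' mean per array was 0.062, -0.26, 0.37 and -0.32 in miR-126+/+ 1 to 4 and -0.078, -0.052, -0.072 and 0.37 in miR-126-/- 1 to 4. Arrays miR-126+/+ 2 and 4 were the lowest of the 8. Without scaling, and over the 29 members other than Ccna2, the mean was 0.039 on miR-126+/+ 3, still the highest of its genotype, and 0.048, 0.061 and 0.176 on miR-126-/- 1, 3 and 4, which all lay above it. Arrays miR-126+/+ 2 and 4 were then at -0.148 and -0.143. The first principal component of 29 centred members, all but Ccna2, held 77.6% of their variance and the second 10.2%.

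**Figure D2:**
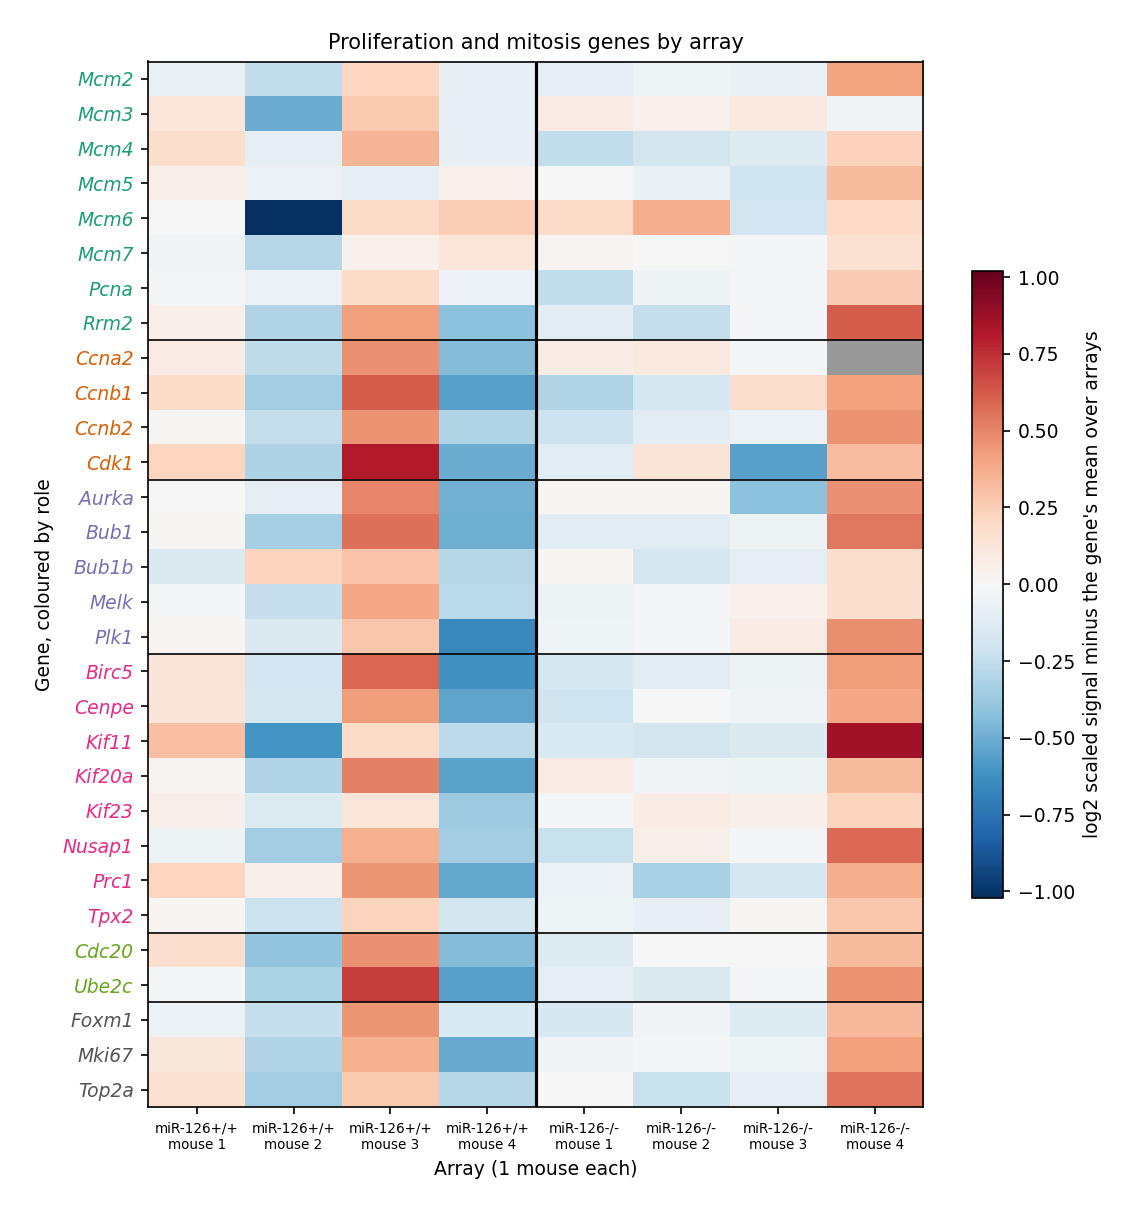
Log2 scaled signal of each tested gene minus that gene's mean over the arrays (colour), by gene (rows, names coloured by role, lines between roles) and array (columns, 1 mouse each). The columns miR-126+/+ 3 and miR-126-/- 4 are mostly red and miR-126+/+ 4 mostly blue, and the grey cell is the Ccna2 spot in the dim area, left out.

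Members spread more than most genes among the miR-126+/+ arteries. Their median SD was 0.387 among the 4 miR-126+/+ arrays and 0.239 among the 4 miR-126-/- arrays, and the medians over all genes were 0.229 and 0.180. The SD was larger among miR-126+/+ arrays in 22 of 30 members, a share of 73.3% beside 64.1% of all genes. By role, the median SD in miR-126+/+ arteries was 0.206 for replication genes, 0.468 for cyclins and Cdk1, 0.396 for the kinases, 0.416 for spindle and cytokinesis genes and 0.498 for Cdc20 and Ube2c. In miR-126-/- arteries it was 0.221 for replication genes and between 0.228 and 0.315 for the other groups. Among the 8 replication genes, Mcm6, Rrm2 and Mcm3 had an SD above 0.3 in miR-126+/+ arteries, and Mcm2, Mcm4, Mcm5, Mcm7 and Pcna lay at or below 0.22.

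**Figure D3:**
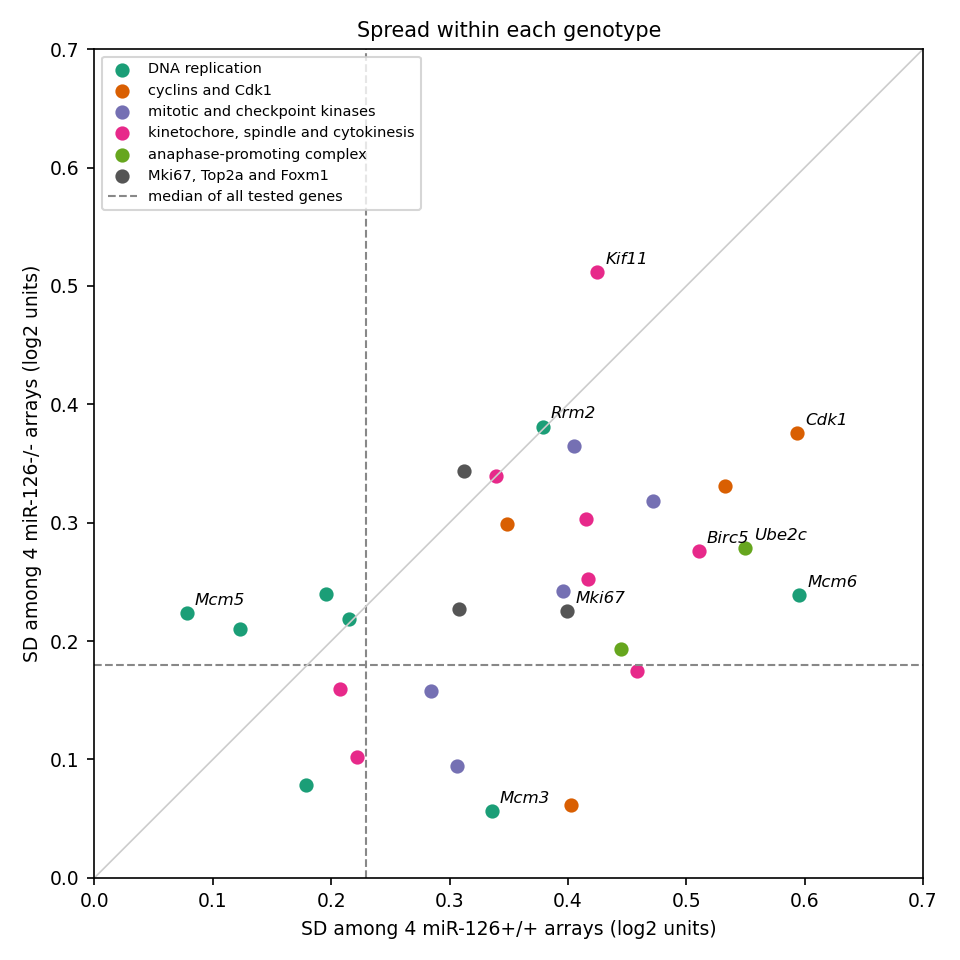
SD of the log2 scaled signal among 4 miR-126+/+ arrays (horizontal axis) and 4 miR-126-/- arrays (vertical axis, 3 arrays for Ccna2) for each tested member, coloured by role. Dashed lines are the medians over all genes, 0.229 and 0.180, the diagonal marks equal spread, and most members lie right of the vertical line and below the diagonal.

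Single arrays set much of this spread. Without miR-126+/+ 3 the members' median SD among miR-126+/+ arrays was 0.267, above the 0.186 of all genes over the same 3 arrays. Without miR-126-/- 4 their median SD among the other 3 miR-126-/- arrays was 0.073, below the 0.163 of all genes over the same 3 arrays. Both arrays left out were the highest of their genotype for most members, so a smaller SD without them follows partly from that choice. With the dim spot kept, the members' median was 0.270, 0.281 and 0.262 without miR-126-/- 1, 2 and 3. It was 0.440, 0.373 and 0.347 without miR-126+/+ 1, 2 and 4. The step that scales arrays also bears on it. The 75th percentile of signal was 518.2 on miR-126+/+ 3 and 568.8 on miR-126-/- 4, the lowest of the 8, against 619.2 to 736.1 on the others, so scaling raised both arrays. Without any scaling between arrays, the members' median SDs were 0.214 and 0.132 and those of all genes 0.283 and 0.224, and the order of members and all genes was turned. The median of all centred genes then stood at -0.258 on miR-126+/+ 3 and at -0.162 on miR-126-/- 4. The members stood 0.30 above that median on miR-126+/+ 3 and 0.34 above it on miR-126-/- 4, a distance that a scaling by 1 factor per array leaves as it is.

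A list of 112 other cell cycle genes, such as further replication factors, G1/S regulators, kinetochore, spindle and condensin genes, was also highest on miR-126+/+ 3 and miR-126-/- 4 within the genotypes. Of these, 105 were tested, and 0 passed the adjusted threshold in either direction, against 0.0965% of all genes. An unadjusted p under 0.05 was found for 0 of them, against 10.2% of all genes. A difference above 0 was found for 67, against 51.7% of all genes, with a median of 0.037 against 0.0076. Array miR-126+/+ 3 was the highest of its genotype in 87 of the 105 (82.9%, against 42.7% of all genes) and miR-126-/- 4 in 88 (83.8%, against 30.2%). Their mean per array was 0.035, -0.15, 0.30 and -0.25 in miR-126+/+ arteries and -0.085, -0.054, -0.054 and 0.27 in miR-126-/- arteries. The smallest p among them belonged to Rfc3, a subunit of the clamp loader, with a difference of -0.27 ± 0.13 (SE; limma adjusted p = 0.546). Its levels were -1.52, -1.24, -1.24 and -1.35 in miR-126+/+ arteries and -1.70, -1.72, -1.72 and -1.29 in miR-126-/- arteries, so 3 of the miR-126-/- arrays lay below all miR-126+/+ arrays and the other did not. Next in order of p came Tyms, which makes thymidylate, at 0.27, Gtse1 at -0.44, the DNA ligase Lig1 at 0.19, the mitotic kinase Mastl at -0.32 and the GINS subunit Gins3 at -0.32, and none of them passed.

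Markers of thymocytes and T cells were highest on the same 2 arrays as the members within each genotype. The thymocyte list, which holds Rag1, Rag2, Dntt, Ptcra and other genes of developing T cells, had 10 of 10 genes tested and shares no gene with the members. Its mean per array was -0.31, -0.99, 0.57 and -1.32 in miR-126+/+ arteries and -0.68, 0.039, 0.47 and 2.23 in miR-126-/- arteries, the same order as the members among the miR-126+/+ arrays and with miR-126-/- 4 highest in the other genotype. Its summed signal ran from 3.85 to 12.3 in miR-126+/+ and from 5.65 to 25.9 in miR-126-/- arteries. Array miR-126-/- 4 was the highest of the 8 for 9 of the 10 genes, and miR-126+/+ 3 the highest of its genotype for 9.

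Rag1, which cuts antigen receptor genes, had levels of -2.48, -3.31, -1.20 and -6.59 in miR-126+/+ arteries and of -3.45, -1.52, -1.14 and 1.45 in miR-126-/- arteries. It was well above background on 7 of 8 arrays, Rag2 and Themis were on 4 of 8, and 5 of the 10 genes were on all 8. Rag2 and Themis were so on 1 miR-126+/+ and 3 miR-126-/- arrays, and Arpp21 on 1 and 4. Rag2, Themis and Arpp21 thus passed the filter only through miR-126-/-, where their means are higher, and they still enter the list's mean. Dntt, which adds bases at receptor gene joins, had levels of 0.66, -0.30, 1.92 and 0.33 in miR-126+/+ arteries and of 0.022, 0.71, 1.26 and 3.49 in miR-126-/- arteries. The thymocyte signal on miR-126-/- 4 thus stood above that on the other 7 arrays by 2.59 for Rag1 and 1.57 for Dntt.

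T cell markers (10 of 10 tested) had a summed signal of 8.57 to 24.2 in miR-126+/+ and 11.5 to 37.2 in miR-126-/- arteries, with miR-126+/+ 3 and miR-126-/- 4 highest in their genotypes. Erythroid markers (7 of 10 tested) ran from 137.9 to 596.7 and from 230.3 to 612.6, with the same arrays highest. Epithelial and thyroid markers (9 of 10 tested) ran from 7.81 to 9.28 and from 7.76 to 28.1, with the high value on miR-126-/- 4. Macrophage markers were highest on miR-126+/+ 3 in that genotype, at a mean of 0.23, but on miR-126-/- 3 in the other, at 0.27. By the mean, smooth muscle markers were highest on miR-126+/+ 4 and miR-126-/- 2. Their summed signal in miR-126+/+ arteries was highest on miR-126+/+ 1, at 457.1 against 450.4 on miR-126+/+ 4. B cell and germinal centre markers (7 of 10 tested) were highest on the same arrays as the members, with a mean of 0.011 on miR-126+/+ 3 and of -0.39, 0.28, 0.46 and 0.63 on miR-126-/- 1 to 4, and their summed signal ran from 2.05 to 2.33 and from 2.14 to 4.13. By the mean, plasma cell markers (6 of 6 tested) were highest on miR-126+/+ 2, at -0.21, just above miR-126+/+ 3, at -0.22, and on miR-126-/- 4, at 0.98. Their summed signal was instead highest on miR-126+/+ 3 in that genotype, at 17.7 against 12.8 on miR-126+/+ 2, and on miR-126-/- 4 in the other.

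**Figure D4:**
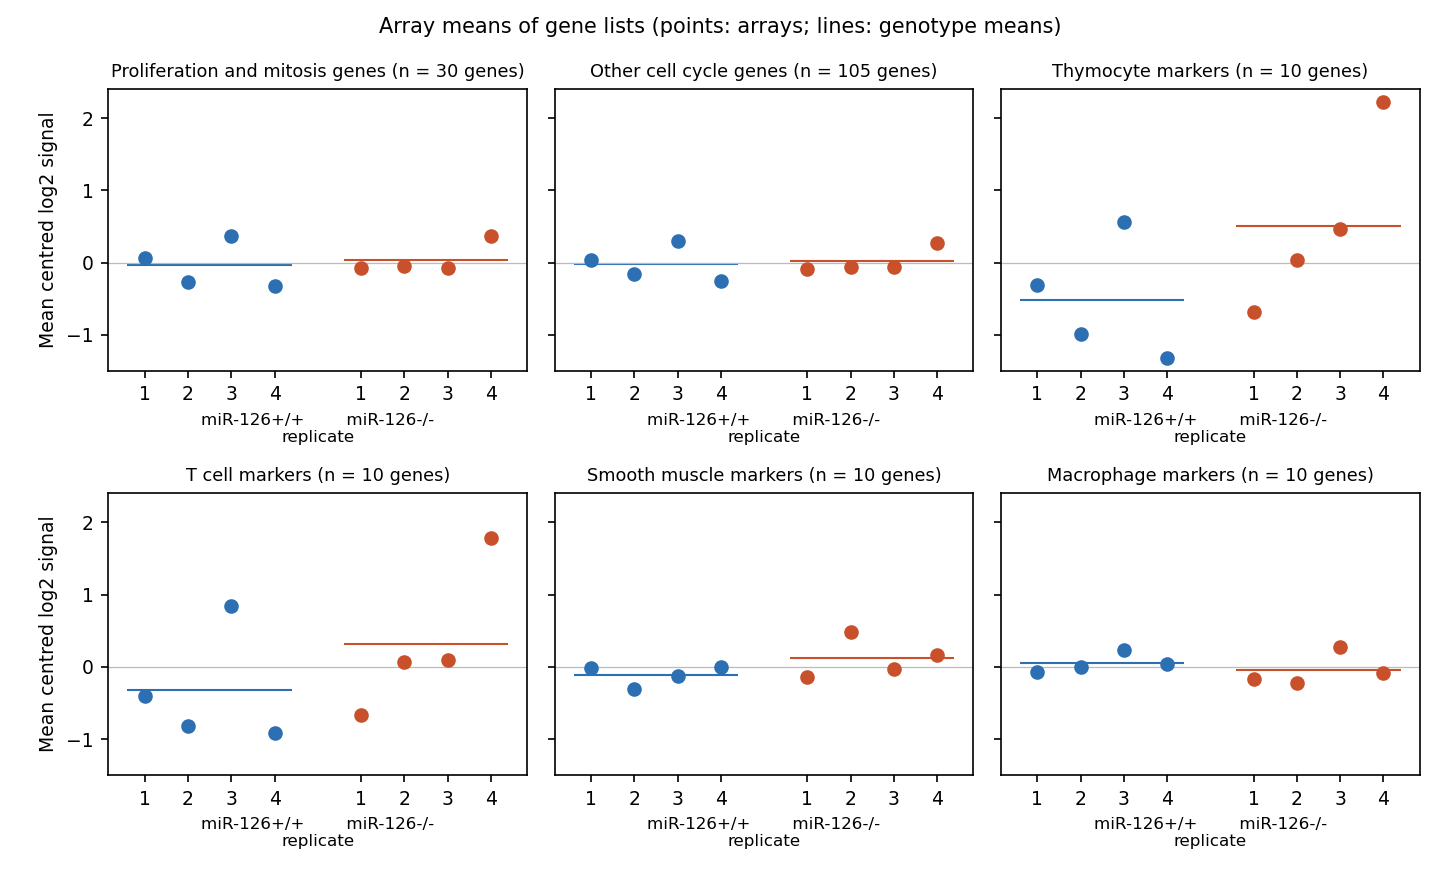
Mean centred log2 signal of 6 gene lists (panels, common vertical axis) on each array (points, blue for miR-126+/+ and orange for miR-126-/-), with genotype means as lines. Members, other cell cycle genes, thymocyte and T cell markers are highest on miR-126+/+ 3 and miR-126-/- 4 within their genotypes. Macrophage markers are highest on miR-126+/+ 3 and miR-126-/- 3, and smooth muscle markers on miR-126+/+ 4 and miR-126-/- 2.

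With a marker list as a covariate in the fit, the median residual SD of the members went from 0.328 without one to 0.186 with the thymocyte list, 0.186 with the T cell list and 0.207 with the erythroid list, and it lay between 0.301 and 0.357 with each of the other 11 lists, 0.311 with the B cell list and 0.303 with the plasma cell list among them. Over all genes it went from 0.222 to 0.212, 0.209 and 0.213 with those 3 lists. It was smaller than without a covariate in 27, 28 and 29 of 30 members, against 48.5%, 50.9% and 47.6% of all genes. The thymocyte and T cell lists share 2 genes. The thymocyte list's mean was -0.51 in miR-126+/+ and 0.51 in miR-126-/- arteries, so this covariate is partly aligned with genotype. Of its genes 10 of 10 had a difference above 0, against 51.7% of all genes, with a median of 1.03, and 0 passed. The T cell list also had 10 of 10 above 0, with a median of 0.61, and 0 passed. Rag2, Themis and Arpp21 in the thymocyte list passed the filter only through miR-126-/-, and Themis is also in the T cell list. Their differences above 0 partly follow from that filter, so these counts and medians do not compare the genotypes. The same genes enter the covariate. In the fit with the thymocyte list, chosen after these values were seen, 5 of 30 members had a difference above 0, and 0 passed the adjusted threshold. The median difference was -0.17, against -0.014 over all genes. An unadjusted p under 0.05 was found there for 1 of 30 members and for 2556 of all 23830 genes. That member was Mcm4, at -0.37 ± 0.09 (SE; limma adjusted p = 0.309). Without miR-126+/+ 3 and miR-126-/- 4 together, 25 of 30 members had a difference above 0, the median was 0.11, and 0 passed. Whether cycling cells of the vessel wall, of lymphoid tissue or of another source carried the members' signal was not tested.

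The dim area of miR-126-/- 4 held 3 probes of the members. The Ccna2 probe, the only one for that gene (chr3:36463978-36464037 on mm9, the build of the files), was 7.81 below the median of the other 7 arrays there. A Birc5 probe was 2.25 below, at -2.86, against -1.05 to 0.22 on the other arrays. A Mki67 probe was 0.61 above its median there, and the Mki67 probe outside the area was also highest on miR-126-/- 4. The brightest Birc5 probe lies outside the dim area, and there miR-126-/- 4 was at 2.99 and the second highest of the 8 arrays, after miR-126+/+ 3 at 3.15. That Birc5 probe gave a difference of 0.048 ± 0.261 (SE; limma adjusted p = 0.968), and the one in the dim area gave -0.71 ± 0.55 (SE). Another Birc5 probe outside the dim area gave -0.10 ± 0.28 (SE), so the sign also differed between probes outside it.

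**Figure D5:**
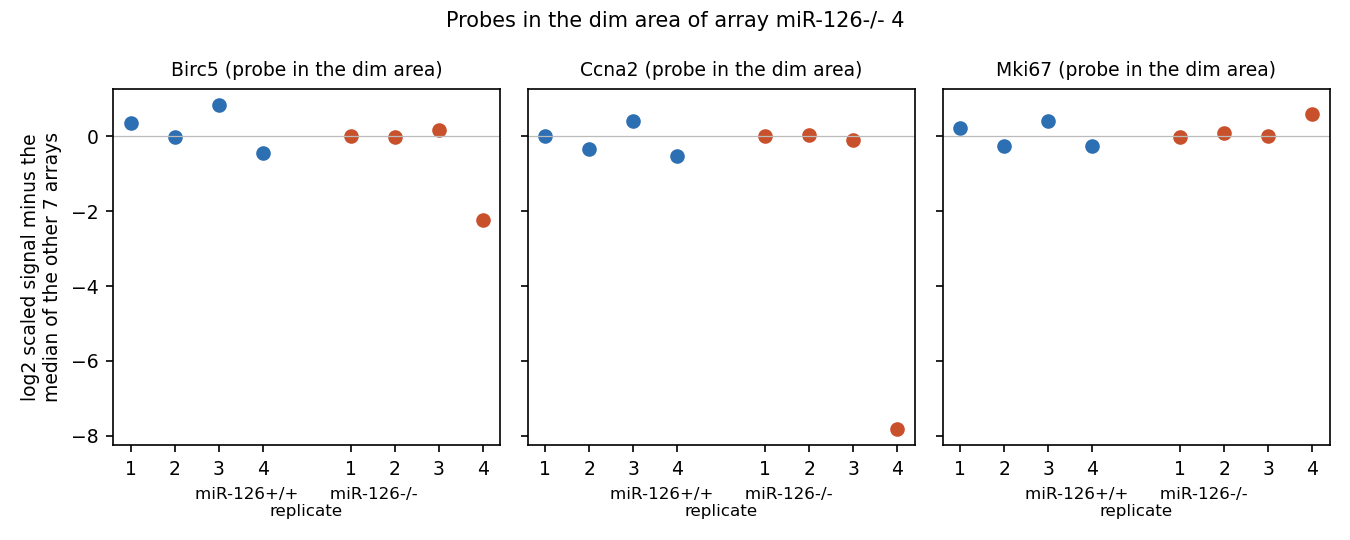
Log2 scaled signal minus the median of the 7 arrays other than miR-126-/- 4 (vertical axis) on each array (points, blue for miR-126+/+ and orange for miR-126-/-) for the 3 member probes in the dim area. On miR-126-/- 4 the Ccna2 probe lies 7.81 and the Birc5 probe 2.25 below that median, and the Mki67 probe 0.61 above it.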

How the data were processed

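RNA of 8 injured carotid arteries was measured on single-colour Agilent mouse arrays, 1 per mouse. The authors read them with Agilent Feature Extraction 10.7.3.1, per the submitters' processing notes and the file headers, and deposited processed signals: linear intensity, background-subtracted and detrended by the software. The authors' deposited value table repeats these intensities without scaling. Positions are on mm9, per the file headers, and promoters come from RefSeq on GRCm38.p6.

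Control spots were dropped, as were 146 to 216 outlier spots on each array, and repeat spots were averaged by probe. Values are log2 signal minus the array's 75th percentile. A probe entered when well above background on at least 3 of 4 arrays of a genotype, and each gene is represented by its brightest probe. RefSeq accessions matched 47.4% of probes to current symbols, and the others kept the file's name. The genotype test used limma 3.58.1 under R 4.3.3 (lmFit then eBayes, 6 residual degrees of freedom), two-sided, with Benjamini-Hochberg adjustment over all genes and a threshold of 0.05. The fit was tested on simulated data. Python 3.11.15 with pandas 2.3.3, scipy 1.17.1 and matplotlib 3.10.9 made the summaries and figures.

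The members, the other gene lists and the rule for naming genes were chosen with earlier results of these data known. The rule names Mki67, Top2a, Cdk1, Ccnb1, Pcna, Mcm5 and Foxm1, the 2 members of each role group with the smallest p, the 4 with the largest pooled SD, and the 6 other cell cycle genes with the smallest p. Other genes with values were named after these were seen. Marker lists of 14 cell types were summed and averaged per array. Alternatives were normexp with an offset of 50, quantile normalization, another percentile set, the deposited table, other filters, the mean of a gene's probes, array weights, a trend with intensity, a block for replicate number, marker covariates, leaving out the dim area and leaving out each array. A thymocyte covariate, leaving out miR-126+/+ 3 and miR-126-/- 4 together, and no scaling were added after seeing the data. Same-numbered arrays of the 2 genotypes deviated from their group means with correlations of 0.205, -0.285, -0.0446 and 0.00733, so the numbers were not taken to pair the mice.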

Additional observations from a re-analysis of the deposited data

Results flagged for a closer look

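In 7 of 66 comparisons of 4 arrays, 1 array of a genotype stood apart from the other 3 by a gap above Dixon's 95% critical value, relative to the genotype's whole range, and chance alone flags about 1 in 20 groups. All 7 concern miR-126-/- 4. On 6 of them that array was high. The gap divided by the range was 0.928 for Mki67, where the array was at 2.72, 0.904 for Bub1 at -1.74, 0.965 for Kif11 at -1.88 and 0.883 for Mcm2, a helicase subunit, at 0.257. It was 0.942 for the mean of all members and 0.911 for the mean of the other cell cycle genes. The members share RNA and vary together, so these flags are not independent. The remaining one was Ccna2, with a ratio of 0.985, where the array was low at -7.11 on the spot in the dim area.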

How the results depend on the processing

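With 4 arrays per genotype the precision is limited. In all 24 alternatives 0 members and 0 of the other cell cycle genes passed the adjusted threshold. An unadjusted p under 0.05 was found for 0 members except with the thymocyte covariate. That fit gave 1 of 30, beside 2556 of all 23830 genes. Genes called over the whole array, 23 as reported, numbered 11 with quantile normalization, 12 from the deposited table, 9 without a filter, 6 with detection on all 8 arrays, 10 with the mean of a gene's probes, 73 with array weights, 7 with the skeletal muscle covariate, 5 with the thymocyte covariate, 0 with the adipocyte covariate, 8 without miR-126+/+ 3 and miR-126-/- 4, and 0 to 59 with 1 array left out. The fit with the replicate number as a block gave 0, and it changed no call among the members.

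Members above 0 numbered 5 with the thymocyte covariate and 12 to 27 with 1 array left out. The adipocyte covariate moved the median difference to 0.41 for members and 0.28 for other cell cycle genes. With 1 array left out these medians ran from -0.040 to 0.22 and from -0.041 to 0.14. The members' median SD, 0.387 and 0.241 with the dim spot kept, was 0.214 and 0.132 without scaling. It ran from 0.27 to 0.44 among miR-126+/+ arrays and from 0.073 to 0.28 among miR-126-/- arrays with 1 array left out, and was 0.073 among the latter without miR-126+/+ 3 and miR-126-/- 4. The cause of these shifts was not tested.

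Of 550 differences of named genes under alternatives, 54 changed sign and 0 passed the threshold. With the thymocyte covariate the difference was -0.098 for Mki67, -0.16 for Top2a, -0.33 for Ccnb1, -0.054 for Mcm5, -0.23 for Foxm1, 0.044 for Ccna2, -0.024 for Plk1, -0.22 for Bub1, -0.12 for Nusap1, -0.18 for Cdc20, -0.27 for Ube2c and -0.20 for Kif11. With the adipocyte covariate it was 0.62 for Cdk1, -0.071 for Mcm5, 0.87 for Ccna2 and 0.021 for Gtse1. Both covariate fits kept the Ccna2 spot in the dim area, and the SE of Ccna2 with the thymocyte covariate was 1.48. Normexp gave -0.15 for Ccnb1, 0.11 for Pcna, -8.2e-05 for Mcm5 and -0.029 for Foxm1. The mean of a gene's probes gave -0.080 for Ccnb1 and -0.10 for Foxm1. Foxm1 was at -0.017 with quantile normalization and -0.016 with the other percentile set, Mcm5 at -0.021 with array weights and Pcna at 0.023 without scaling. Ccna2 was at 0.087 without the dim area. Without miR-126+/+ 3 and miR-126-/- 4, Cdk1 was at 0.025, Mcm5 at -0.11 and Ccna2 at 0.26. With 1 array left out the ranges were -0.11 to 0.15 for Foxm1, -0.12 to 0.27 for Ccnb1, -0.0049 to 0.42 for Mcm6, -0.033 to 0.27 for Cdc20, -0.076 to 0.34 for Ube2c, -0.29 to 0.15 for Cdk1, -0.12 to 0.048 for Pcna, -0.080 to 0.095 for Mcm5, -0.027 to 0.34 for Bub1, -0.052 to 0.22 for Top2a, -2.53 to 0.087 for Ccna2 and -0.071 to 0.32 for Kif11.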
